A study of Mus musculus with 6 samples.

Results

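The cytosolic ribosomal protein genes were followed in mouse CD8+ T cells that had been activated with or without myeloid cells beside them. Members were the rows of the expression table whose symbol names a protein of the large or small subunit of the cytosolic ribosome (Rpl or Rps with a number and at most a short suffix, plus Rplp0, Rplp1, Rplp2 and Rpsa). Pseudogene rows and the Rps6k kinases were left out. The rule gave 77 members of the 25638 genes in the table, 46 of the large and 31 of the small subunit. They were chosen by name and not by their values.

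All groups consisted of OT-I T cells, which carry a transgenic receptor for an ovalbumin peptide, labelled wild type, stimulated with that peptide (OVA257-264) for 48 h and purified before RNA extraction. In the TAN group they were cultured with TANs, in the labels CD11b+Ly6G+Ly6Clow cells. In the TAMo group they were cultured with TAMos, CD11b+Ly6G-Ly6Chigh cells. Vehicle took the place of the myeloid cells in the last group. Both myeloid populations had been sorted out of spleens, not tumours, of mice bearing LLC, a lung carcinoma line. Each group had 2 RNA sequencing libraries. The labels do not tell whether these came from separate cultures or animals, so every p-value measures only the spread between these libraries, which may be technical.

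A eukaryotic ribosome holds a single copy of nearly every ribosomal protein, and the acidic stalk proteins P1 and P2 in pairs. Activated T cells enlarge their ribosome pool before they divide. Ribosomal protein transcripts begin with a pyrimidine stretch, the terminal oligopyrimidine or TOP motif, through which mTORC1 and LARP1 set their translation and stability. Ribosomal proteins that are not built into a ribosome are degraded, and free RPL5 and RPL11, bound to 5S ribosomal RNA, can hold back MDM2 and so stabilise p53.

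All values are FPKM, in which counted reads are scaled to the length of the gene and to the total of the library. The lengths used and the handling of reads with several matches are not stated. Levels of different genes can therefore be compared only roughly. The members' levels averaged over the 6 libraries ran from 89.7 FPKM for Rpl13a to 4745 FPKM for Rplp0, with a median of 1085 FPKM. Rplp0, the base protein of the acidic stalk, was followed by Rplp1, Rps2, Rpl3 and Rpsa. At the low end, Rpl13a was joined by Rpl21, Rpl35, Rpl22 and Rps20. All 77 members passed the filter on low values (at least 1 FPKM in at least 2 libraries), and the lowest single value was 47.5 FPKM, of Rpl21 in TAMo replicate 2.

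Of the 8 T cell markers listed, 7 were in the table, and their summed level was 1273 to 1289 FPKM with TAN, 1263 to 1267 FPKM with TAMo and 1286 to 1315 FPKM with vehicle, while Cd4 was at most 0.156 FPKM. Neutrophil markers summed to 0.0739 to 0.117 FPKM with TAN, 0.335 to 0.584 FPKM with TAMo and at most 0.0492 FPKM with vehicle, and 6 of the 11, S100a8 and S100a9 among them, were listed at 0 in every library. The 12 monocyte and macrophage markers summed to 25.2 to 25.4 FPKM with TAN, 11.6 to 14.6 FPKM with TAMo and 32.6 to 33.0 FPKM with vehicle. Ly6c2, which T cells can also express, made up most of this sum with TAN and with vehicle, C1qa was listed at 0 in all libraries, and Cd14 reached 2.84 and 3.17 FPKM with TAMo and at most 0.0852 FPKM elsewhere. The part of other cells in the results below was not tested. In a bulk sample, fewer cells of a type and less RNA per cell cannot be told apart.

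TAMo replicate 1 stood apart from the other 5 libraries in how reads were spread between ribosomal protein genes and their near-identical copies. Rps12-ps3, annotated as protein coding on chr19:59322290-59322783 (GRCm38), has every one of its 395 windows of 100 bases in common with Rps12, a small-subunit gene on chr10:23785183-23787275. Rpl9-ps6, on chr19:32465865-32466578, has 80.2% of its windows in common with the large-subunit gene Rpl9 on chr5:65388364-65391444. The first 80 coding bases show that Rps12 and its copy cannot be told apart by a read inside the shared stretch; over all 399 coding bases the pair had 0 differences. For Rpl9 and its copy, the 80 bases shown hold the single difference in 579 coding bases, G266A (position counted from 1 at the A of the start codon, member first), in capitals. The sequences are those of the GENCODE transcripts.

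Rps12 and Rps12-ps3: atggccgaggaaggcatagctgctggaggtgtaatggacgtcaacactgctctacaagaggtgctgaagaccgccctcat
Rpl9: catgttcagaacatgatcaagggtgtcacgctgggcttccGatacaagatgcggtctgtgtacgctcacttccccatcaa
Rpl9-ps6: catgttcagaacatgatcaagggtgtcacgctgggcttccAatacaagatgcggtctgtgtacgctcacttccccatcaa

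Rps12-ps3 had 512 and 528 FPKM in the TAN libraries, 2.40 and 492 FPKM in TAMo replicates 1 and 2, and 607 and 599 FPKM in the vehicle libraries. Rps12 itself had 1996 and 2182 FPKM with TAN, 2491 and 1577 FPKM with TAMo, and 2228 and 2063 FPKM with vehicle. TAMo replicate 1 was thus the highest library for the member and by far the lowest for its copy. Rpl9-ps6 had 116 and 116 FPKM with TAN, 2.38 and 120 FPKM with TAMo, and 126 and 124 FPKM with vehicle, while Rpl9 had 841 and 844 FPKM with TAN, 862 and 748 FPKM with TAMo, and 840 and 850 FPKM with vehicle. Adding copies to members was chosen after the data were seen. Each row is scaled to the length of its own gene, so the sum is not a level of pooled reads. With the copy added, Rpl9 had 957 and 960 FPKM with TAN, 865 and 868 FPKM with TAMo, and 965 and 975 FPKM with vehicle. The TAMo libraries then no longer differed from each other and lay below the other 4. In that fit Rpl9 fell with TAMo by 0.16 on the log2 scale (limma adjusted p = 0.000331), whereas the deposited Rpl9 row did not pass (log2 change -0.07, adjusted p = 0.279). Rps12 with its copy had 2508 and 2709 FPKM with TAN, 2493 and 2069 FPKM with TAMo, and 2835 and 2662 FPKM with vehicle. Here the TAMo libraries still differed from each other, and TAMo replicate 1 lay just below TAN replicate 1. Rps12 with its copy fell by 0.27 (limma adjusted p = 0.0167), and the Rps12 row alone gave -0.11 (adjusted p = 0.576).

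**Figure D1:**
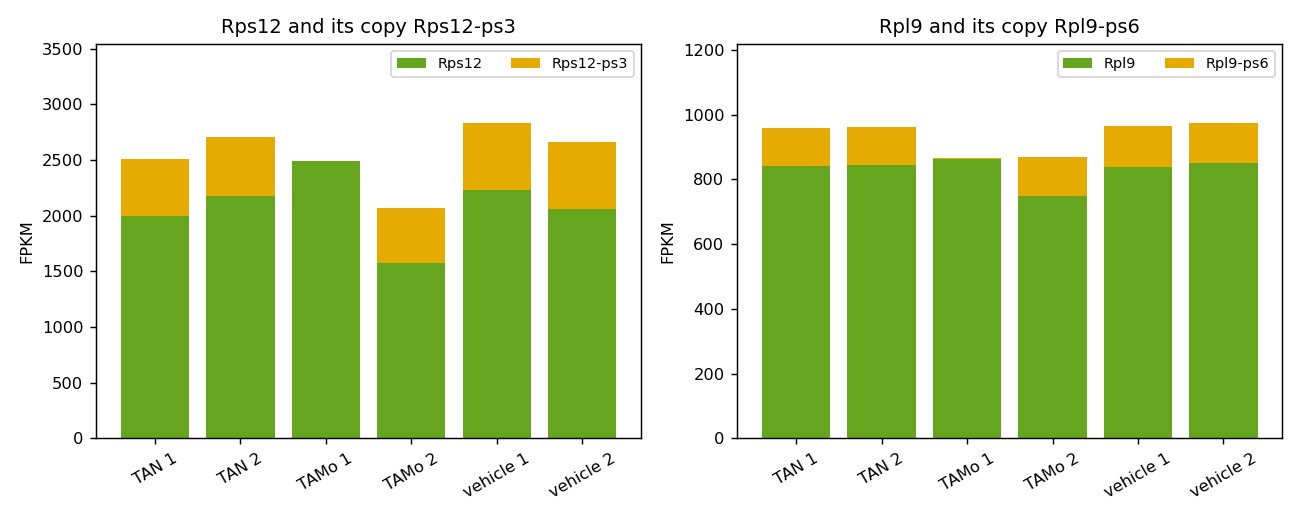
FPKM of Rps12 (left) and Rpl9 (right) in each of the 6 libraries as stacked bars, with the copy on top of the member. In TAMo replicate 1 the copies held 2.40 and 2.38 FPKM and the members 2491 and 862 FPKM, while in the other 5 libraries both rows were filled.

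Over the whole table, 4 rows with at least 5 FPKM in one replicate were below 10% of that level in the other, and all 4 were low in TAMo replicate 1: Rps12-ps3, Rpl9-ps6 and the T cell receptor segments Trav14d-1 and Trav19. No row met this in the other 5 libraries. The 8 rows that share at least 50% of their windows with a member summed to 850 and 863 FPKM with TAN, 102 and 762 FPKM with TAMo, and 952 and 945 FPKM with vehicle. In TAMo replicate 1 the smallest step between low FPKM values corresponded to a total of 21.9 M reads, against 41.7 M to 45.2 M in the others. Whether this is its depth or reads were entered there in pairs could not be settled. The handling of reads with several matches is not given in the sources used. Results are therefore given with and without this library where it matters.

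Among the members themselves, the TAMo libraries also differed most from each other. The log2 ratio of replicate 1 over replicate 2 exceeded 0.25 in size for 15 of the 77 members with TAMo (19.5%, beside 6.67% of all genes tested), for 1 with TAN (Rpl30) and for 2 with vehicle (Rpl30 and Rpl29). With TAMo the ratio was positive for Rpl21 (0.93), Rpl17 (0.80), Rps12 (0.66), Rps10 (0.35) and Rpl38 (0.30). It was negative for Rpl41 (-0.62), Rpl37a (-0.53), Rpl30 (-0.51), Rpl29 (-0.40), Rps2 (-0.39), Rpl23a (-0.38), Rpl6 (-0.35), Rps21 (-0.32), Rpl15 (-0.30) and Rps6 (-0.27). Sequence sharing is general in this family: 73 of the 77 members had at least 1 window of 100 bases in common with another annotated gene, with a median of 23.3% of windows and a maximum of 83.6%, of Rpl36a. Rpl22, Rps21 and Rps3 were among those that shared none. Exons of 18 members overlapped a gene on the opposite strand, from which they cannot be separated without strand. Some members also overlapped a gene on the same strand, such as Rps10 with RPS10-NUDT3 and Rpl13a with Gm45713, which strand cannot separate.

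**Figure D2:**
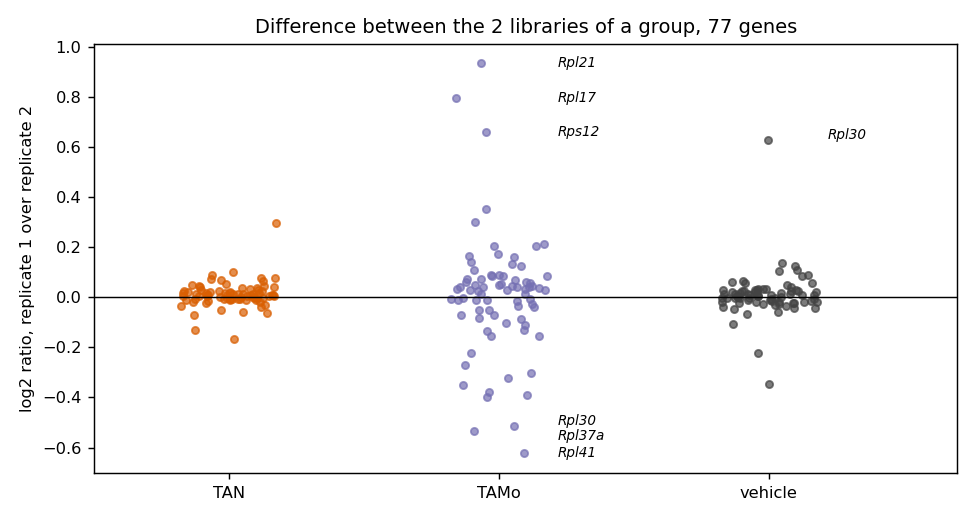
Log2 ratio of replicate 1 over replicate 2 for each of the 77 members (points) in the TAN, TAMo and vehicle groups; genes beyond 0.45 in size are named. The points spread most with TAMo, from -0.62 for Rpl41 to 0.93 for Rpl21.

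With TAMo, ribosomal protein transcripts were lower almost throughout the family, and by unequal amounts. Of the 77 members, 69 fell, Rplp0 rose and 7 did not pass the test (adjusted p under 0.05), that is 90.9% called. Of all 10727 genes tested, 86.5% were called in this comparison, 45.7% higher and 40.7% lower, so that a call by itself was common among all genes. The median log2 change of the members was -0.73 (a ratio of 0.603), with quartiles of -1.03 and -0.44, and that of all genes tested was 0.06. For 21 members the fall was at least 1 on the log2 scale. The 2 TAMo libraries lay below both vehicle libraries for 70 members and above both for 1, beside 43.7% and 49.0% of all genes tested. Large-subunit genes had a median of -0.84 (42 of 46 fell) and small-subunit genes a median of -0.61 (27 of 31 fell); the difference between the subunits was not tested.

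The count did not rest on the library that stood apart: without TAMo replicate 1, 71 members fell and 2 rose, with a median of -0.69, and without TAMo replicate 2, 70 fell and 2 rose, with a median of -0.71. All FPKM of a library summed to 628881 and 628328 with TAN, 546324 and 548039 with TAMo, and 630749 and 629901 with vehicle. None of the alternatives set this full sum equal between libraries. The size of the shift depended on the scaling. The median was -0.46 after quantile normalisation (56 fell, 12 rose), -0.40 with a trend on transcript length and GC content removed (54 fell, 11 rose) and -0.63 on a common sum outside the mitochondrial genome (65 fell, 4 rose). In the main analysis and in all 17 alternatives, 50 members fell and Rplp0 rose. The calls of Rpl4, Rps10 and Rps27 were lost without vehicle replicate 1 and without vehicle replicate 2, that of Rps27 also without TAMo replicate 2, and those of Rpl4 and Rps27 without either TAN library. The members' transcripts are short, with a median length of 937 bases against 2518 bases over the table. Transcripts of the mitochondrial genome moved in the same comparison, making up 8.07% and 8.21% of all FPKM with TAN, 1.20% and 1.32% with TAMo, and 8.15% and 8.34% with vehicle. The part of length and of the mitochondrial transcripts in the members' shift was not tested beyond these alternatives.

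**Figure D3:**
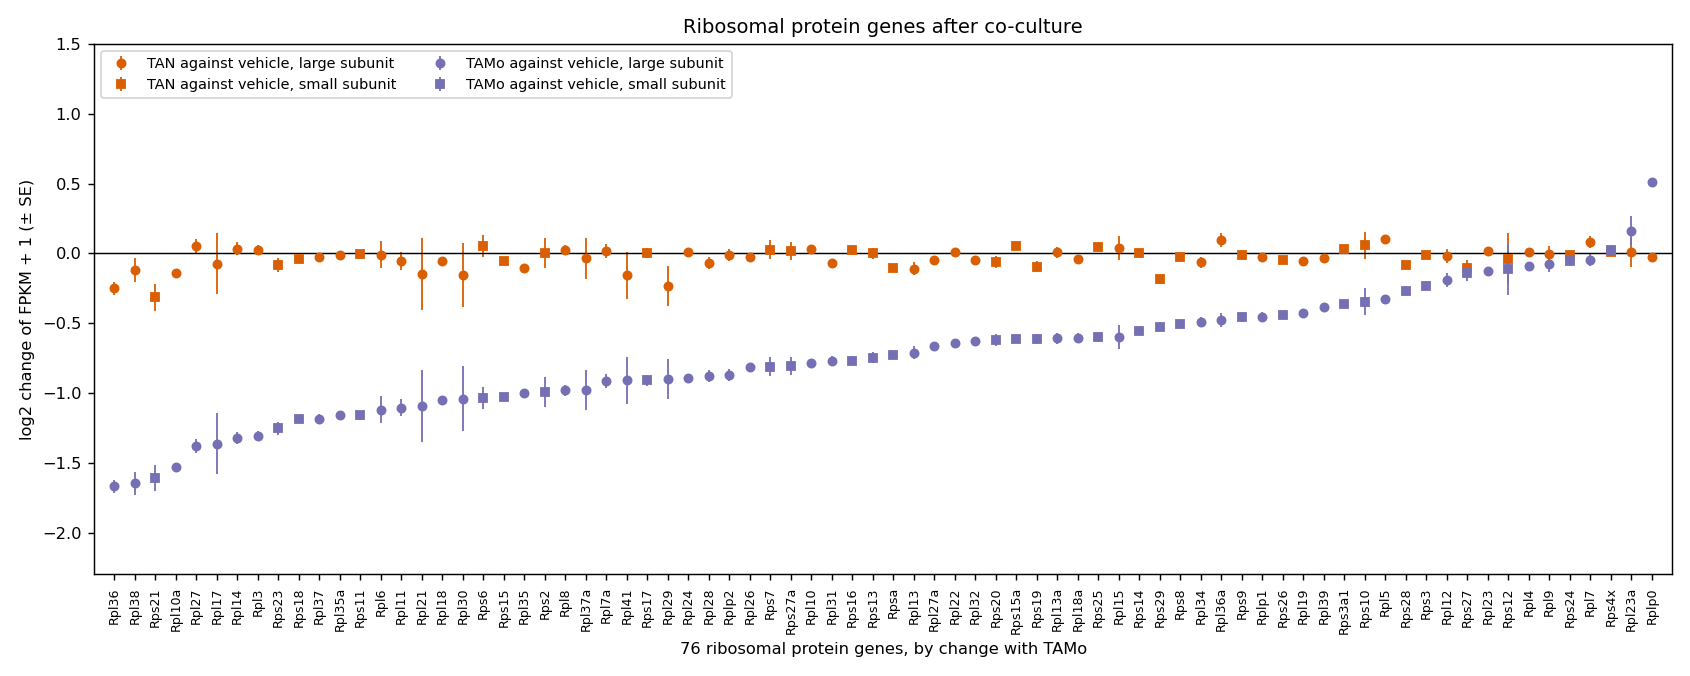
Log2 change of FPKM + 1 against vehicle (± SE from the fit) for the members reported here, ordered by their change with TAMo, with TAN in orange and TAMo in purple, circles for the large and squares for the small subunit. The TAMo points run from -1.67 for Rpl36 to 0.51 for Rplp0, and the TAN points stay between -0.31 and 0.10.

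As a share of all FPKM, the members held 16.4% and 16.3% in the TAN libraries, 12.7% and 12.7% in the TAMo libraries, and 16.7% and 16.6% in the vehicle libraries. The TAMo libraries were low and did not overlap the others. The difference to vehicle was -3.93 percentage points with TAMo and -0.27 with TAN. The exact two-sided permutation test gave p = 0.333 for both, the smallest p that 2 against 2 libraries allow. Without Rplp0 the TAMo share was 11.6% in both libraries, against 16.0% and 15.9% with vehicle.

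The acidic stalk, which recruits and activates the translation factors with GTPase activity, held both the only rise and some of the largest levels. Rplp0 had 4124 and 4081 FPKM with TAN, 6013 and 5893 FPKM with TAMo, and 4229 and 4130 FPKM with vehicle. Both TAMo libraries were above all others, and the log2 change was 0.51 ± 0.03 (SE; limma adjusted p = 2.29e-06). The proteins that bind it were lower with TAMo. Rplp1 had 4011 and 3943 FPKM with TAN, 3011 and 2922 FPKM with TAMo, and 4146 and 3975 FPKM with vehicle, a log2 change of -0.45 ± 0.03 with TAMo (adjusted p = 8.15e-06) that was lost with the length and GC trend removed (0.08, adjusted p = 0.107). Rplp2 had 1614 and 1593 FPKM with TAN, 923 and 846 FPKM with TAMo, and 1632 and 1603 FPKM with vehicle, a change of -0.87 ± 0.04 with TAMo (adjusted p = 5.99e-07). Thus Rplp0 and Rplp1 stood at nearly the same level with TAN and with vehicle, and Rplp0 stood well above Rplp1 with TAMo. Rpl12, at the foot of the stalk, had 1413 and 1405 FPKM with TAN, 1321 and 1182 FPKM with TAMo, and 1429 and 1424 FPKM with vehicle; it fell by 0.19 ± 0.05 (adjusted p = 0.00751), but was called higher after quantile normalisation and with the length and GC trend removed.

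**Figure D4:**
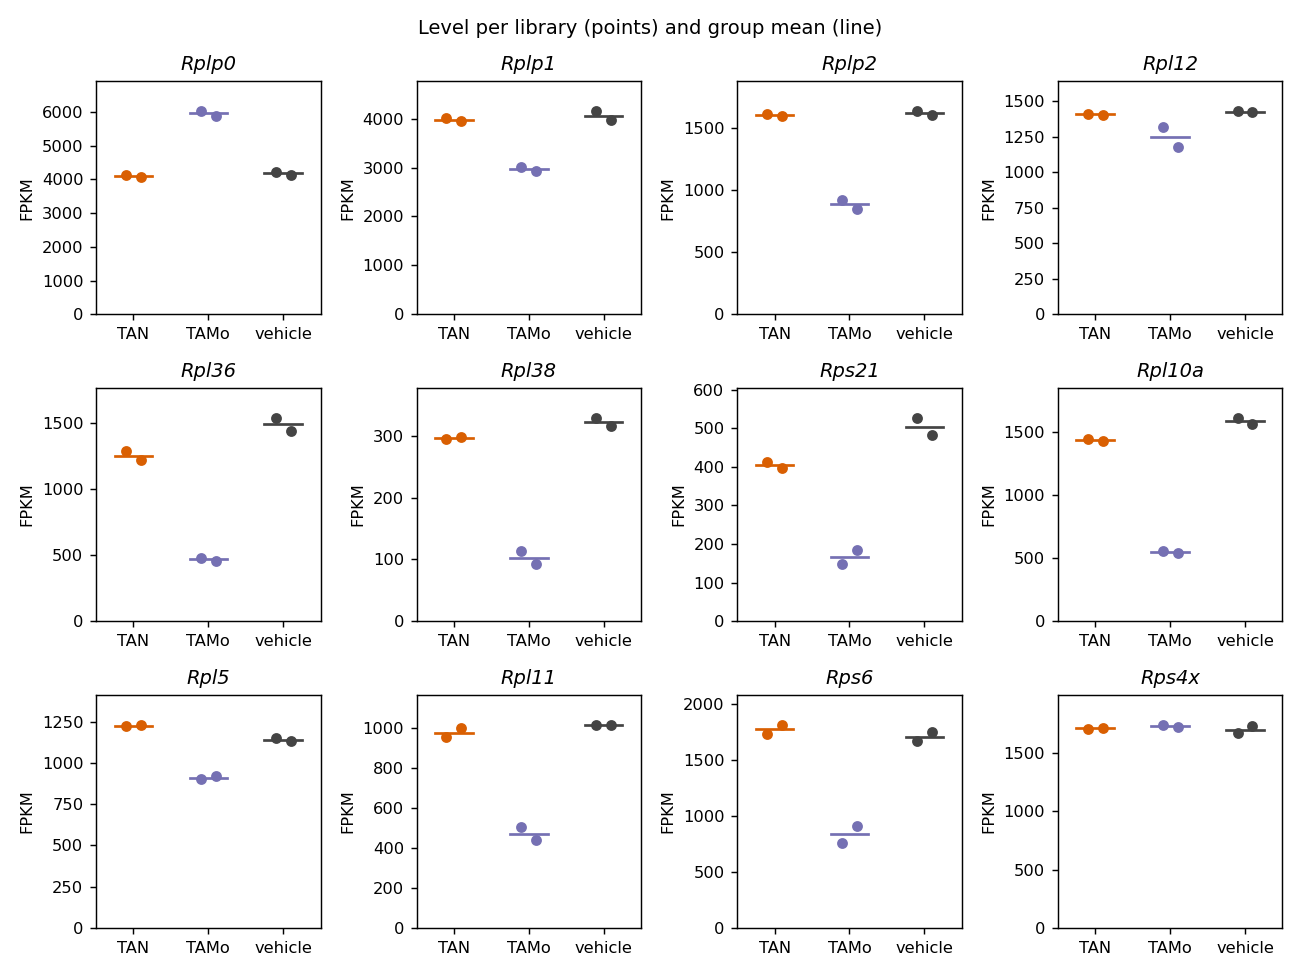
FPKM of 12 members in each library (points) with the group mean (line), in the order TAN, TAMo, vehicle; each panel has its own axis from 0. Rplp0 is highest with TAMo, Rps4x lies within one range in all groups, and the TAMo points are lowest in the other panels.

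The members with the steepest falls belonged to both subunits. Rpl36, a large-subunit protein, had 1286 and 1219 FPKM with TAN, 482 and 454 FPKM with TAMo, and 1538 and 1444 FPKM with vehicle. Its TAMo libraries lay at about 0.314 of the vehicle level (log2 change -1.67 ± 0.05, limma adjusted p = 2.79e-08), with no overlap between any of the groups. Rpl38, whose loss in mice changes the axial skeleton and the translation of Hox messages, had 295 and 298 FPKM with TAN, 113 and 92.0 FPKM with TAMo, and 329 and 316 FPKM with vehicle (change with TAMo -1.65 ± 0.08, adjusted p = 7.96e-07). Rps21, a small-subunit protein and one of the members with no shared window, had 412 and 398 FPKM with TAN, 147 and 184 FPKM with TAMo, and 526 and 482 FPKM with vehicle (change with TAMo -1.61 ± 0.10, adjusted p = 1.88e-06). For both genes the TAMo libraries were far below all others, and the TAN libraries lay below both vehicle libraries. Rpl10a, which sits at the mobile L1 stalk where transfer RNA leaves the ribosome, had 1444 and 1434 FPKM with TAN, 559 and 537 FPKM with TAMo, and 1611 and 1566 FPKM with vehicle (change with TAMo -1.53 ± 0.03, adjusted p = 6.30e-09). The next falls were those of Rpl27 (-1.38), Rpl17 (-1.36), Rpl14 (-1.32) and Rpl3 (-1.31). Of these 4, Rpl17 rests on unequal libraries, with 306 and 176 FPKM with TAMo beside 599 and 600 FPKM with vehicle; the changes were all called in each alternative.

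All 4 members listed for the peptidyl transferase centre, where peptide bonds form, fell with TAMo, by very different amounts. Of all 77 members 89.6% fell, and of all genes tested 40.7%, so this count is near the family's share. Rpl3, which reaches into the centre, had 3524 and 3533 FPKM with TAN, 1361 and 1443 FPKM with TAMo, and 3454 and 3496 FPKM with vehicle. Its TAMo libraries did not overlap the others. Rpl8 (-0.98) and Rpl10 (-0.79), a protein added late as the subunit matures, fell less. Rpl4, which lines the tunnel wall, had 2325 and 2319 FPKM with TAN, 2201 and 2129 FPKM with TAMo, and 2285 and 2328 FPKM with vehicle, a fall of 0.09 (limma adjusted p = 0.0217) that reversed to a called rise after quantile normalisation and with the length and GC trend removed.

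Chaperones and the signal recognition particle dock around the exit of the nascent chain tunnel. Of the 8 members listed there, 7 fell with TAMo and Rpl23a did not pass. This is near the share of all members that fell (89.6%), where 40.7% of all genes tested were lower. The falls were 1.36 for Rpl17, 1.001 for Rpl35, 0.82 for Rpl26, 0.77 for Rpl31, 0.64 for Rpl22, 0.43 for Rpl19 and 0.38 for Rpl39 on the log2 scale. The call of Rpl19 was lost after quantile normalisation (0.04, limma adjusted p = 0.213), and with the length and GC trend removed those of Rpl19 (0.03, adjusted p = 0.308) and Rpl39 (0.05, adjusted p = 0.273) were lost. Rpl23a, a docking site of the signal recognition particle, had 581 and 585 FPKM with TAN, 569 and 739 FPKM with TAMo, and 584 and 575 FPKM with vehicle (log2 change 0.16 ± 0.10, limma adjusted p = 0.179). TAMo replicate 2 alone was high; without replicate 1 the gene was called higher (0.35, adjusted p = 5.50e-06), and without replicate 2 its change was -0.03 (adjusted p = 0.265). With all libraries it was also called higher on the common sum outside the mitochondrial genome (0.26, adjusted p = 0.0445) and with the length and GC trend removed (0.60, adjusted p = 0.000239).

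The proteins that carry 5S ribosomal RNA into the large subunit did not move alike. Rpl5 had 1223 and 1229 FPKM with TAN, 899 and 921 FPKM with TAMo, and 1148 and 1134 FPKM with vehicle. The TAMo libraries were lowest and the TAN libraries highest, with no overlap; the fall with TAMo was 0.33 ± 0.03 (limma adjusted p = 1.07e-05) and turned into a called rise after quantile normalisation. Rpl11 had 950 and 998 FPKM with TAN, 504 and 438 FPKM with TAMo, and 1012 and 1011 FPKM with vehicle, a fall of 1.11 ± 0.06 (adjusted p = 1.31e-06). The difference between the changes of Rpl5 and Rpl11 was not tested.

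In the small subunit, all 4 members listed for the decoding centre and the mRNA entry channel fell with TAMo. Of all 31 small-subunit members 27 fell (87.1%), beside 40.7% of all genes tested, so counts by site are near that share. Rps23, whose loop checks codon pairing, fell by 1.25 and Rps15, next to the decoding site, by 1.03. Rps2 fell by 0.996 and Rps3, at the entry of the channel, by 0.23; Rps3 was called higher after quantile normalisation. Of the 5 members listed for the mRNA exit, 4 fell with TAMo and 1 was not called. Rpsa fell by 0.73, Rps14 by 0.55, Rps26 by 0.44 and Rps28 by 0.27. With the length and GC trend removed, Rps28 and Rps27 were called higher and the calls of Rps3 and Rps26 were lost, that of Rps26 also after quantile normalisation. Rps6, the substrate of the S6 kinases, had 1734 and 1811 FPKM with TAN, 758 and 913 FPKM with TAMo, and 1669 and 1749 FPKM with vehicle (change with TAMo -1.04 ± 0.08, limma adjusted p = 8.16e-06). Its TAMo libraries lay well below the rest, and 83.6% of its windows are shared with other genes. Rps27a, made as a fusion with ubiquitin, fell by 0.81.

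Among the members that were not called with TAMo were Rpl7, Rpl9, Rpl23a, Rps4x, Rps12 and Rps24. Rps4x, the X-linked form of eS4, had 1709 and 1717 FPKM with TAN, 1739 and 1723 FPKM with TAMo, and 1671 and 1728 FPKM with vehicle. The TAMo and vehicle libraries overlapped, and the log2 change was 0.03 ± 0.03 (limma adjusted p = 0.401). It was called higher under 3 scalings, by up to 0.39. Rps24 (-0.06) and Rpl7 (-0.04) turned to called rises under quantile normalisation and with the length and GC trend removed.

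Correlations of the changes with simple properties of the genes were small. Across the 77 members, which share libraries and depth, Spearman's rho of the TAMo change was 0.21 with the mean log2 level, 0.20 with transcript length and -0.15 with the share of windows held in common with other genes. Of the 18 members with under 10% of windows shared, 16 fell, with a median of -0.62. Of the 16 with at least 50% shared, 14 fell, with a median of -0.90. Both counts are near the share of all members that fell (89.6%), where 40.7% of all genes tested were lower.

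**Figure D5:**
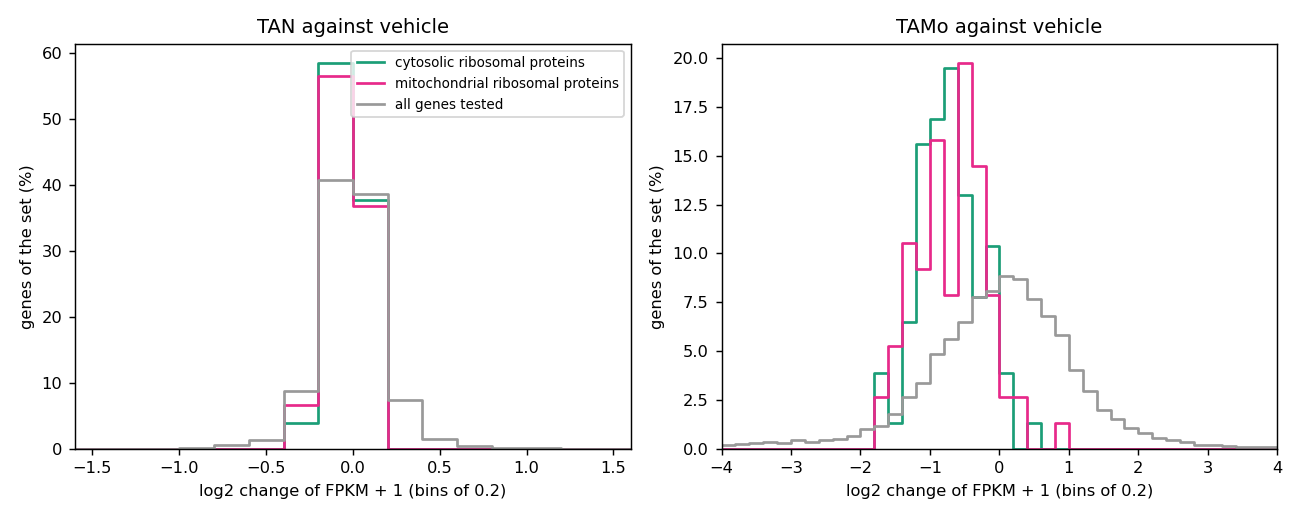
Percent of genes per bin of log2 change against vehicle for the 77 members, 76 mitochondrial ribosomal protein genes and all 10727 genes tested, with TAN on the left and TAMo on the right. With TAMo both ribosomal protein sets lie to the left of all genes (medians -0.73, -0.63 and 0.06), and with TAN all 3 are centred near 0.

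Ribosomal protein promoters are known for strong start sites within a pyrimidine stretch and for sites of ETS-family factors such as GABP. The RefSeq table of promoters (GRCm38.p6) held 57 of the 77 members, and windows of 300 bases, 250 before and 50 after the start, were searched. The letters CCGGAAG or, on the other strand, CTTCCGG were in the window of 42.1% of the members and of 9.93% of 27025 genes. These are all genes with a RefSeq promoter, not only the 10727 tested here. Whether other genes of like level have similar shares was not tested. A run of at least 8 pyrimidines between 20 bases before and 30 bases after the start was found in 56.1% of the members and 21.5% of all genes. GGGCGG or CCGCCC was in 61.4% against 38.2%, CACGTG in 10.5% against 8.09% and TATAAA in 8.77% against 9.77%. CTTCCGG holds CTTCC, which can lie inside a pyrimidine run, so the first and second searches can overlap. Members with and without CCGGAAG or CTTCCGG had median log2 changes of -0.81 (n = 24) and -0.62 (n = 33) with TAMo, and those with and without the pyrimidine run -0.69 (n = 32) and -0.75 (n = 25). The windows shown are those of the member that rose and of a steep fall in each subunit, cut at base 30 after the start. All are on the plus strand, and capitals mark CCGGAAG and pyrimidine runs of at least 8 near the start. Rplp0 lies at chr5:115559217-115559496, Rpl38 at chr11:114668330-114668609 and Rps21 at chr2:180257129-180257408.

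Rplp0: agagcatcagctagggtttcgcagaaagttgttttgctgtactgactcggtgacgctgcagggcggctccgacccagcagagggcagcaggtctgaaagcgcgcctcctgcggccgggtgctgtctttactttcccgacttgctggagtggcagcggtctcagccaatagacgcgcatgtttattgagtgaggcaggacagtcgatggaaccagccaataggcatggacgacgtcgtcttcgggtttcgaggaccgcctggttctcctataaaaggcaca
Rpl38: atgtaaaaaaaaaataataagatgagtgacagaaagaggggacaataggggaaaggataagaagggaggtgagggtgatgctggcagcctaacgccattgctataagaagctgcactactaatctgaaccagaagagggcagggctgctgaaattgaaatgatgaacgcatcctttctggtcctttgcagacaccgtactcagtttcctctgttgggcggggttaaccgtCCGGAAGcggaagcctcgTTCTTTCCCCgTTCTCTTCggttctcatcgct
Rps21: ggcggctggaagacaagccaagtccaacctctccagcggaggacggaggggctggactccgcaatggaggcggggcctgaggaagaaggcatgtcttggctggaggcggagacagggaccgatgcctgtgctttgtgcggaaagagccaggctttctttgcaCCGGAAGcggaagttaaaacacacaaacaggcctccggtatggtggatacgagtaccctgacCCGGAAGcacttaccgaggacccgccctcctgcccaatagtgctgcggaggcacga

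The Rpl38 window held CCGGAAG once, followed by pyrimidine runs of up to 10 letters around the start. Rps21 held CCGGAAG 2 times and no run of 8, and the Rplp0 window held neither. In the Rplp0 window the letters tataaaa lie after the annotated start. Whether that start is the one used in these cells was not tested. A pyrimidine run further downstream would have been missed, so the window does not show that Rplp0 transcripts lack one. Of the promoter factors listed, 4 rose and 3 fell with TAMo, beside 45.7% and 40.7% of all genes tested. Gabpb1, a GABP subunit (0.62), Sp1 (0.62) and Max (0.42) rose, and Myc fell by 0.53.

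With TAN, the family stood close to vehicle. Rpl5 was called higher and 5 members lower, 7.79% of the 77, beside 20.3% of all genes tested (9.37% higher, 11.0% lower). The median log2 change was -0.02, and that of all genes tested -0.00497. The TAN libraries lay below both vehicle libraries for 37 of the 77 members and above both for 12. Among all 10727 genes tested this held for 3568 (33.3%) and 3305 (30.8%), so that the members leaned to lower values more than all genes did. Rpl36 (-0.25 ± 0.05, limma adjusted p = 0.0112), Rps29 (-0.19 ± 0.03, adjusted p = 0.00943), Rpl10a (-0.14 ± 0.03, adjusted p = 0.0201), Rpsa (-0.11 ± 0.03, adjusted p = 0.0365) and Rpl35 (-0.10 ± 0.03, adjusted p = 0.0393) were the lower ones. With its copy added, Rpl35 did not pass (-0.06, limma adjusted p = 0.459). The largest fall of all 77 members was that of Rps21 (-0.31), which was not called in the main fit. It was called lower in a fit of the 2 groups and with the length and GC trend removed. Rpsa, also known as a laminin-binding protein, had 2951 and 2969 FPKM with TAN, 1905 and 1941 FPKM with TAMo, and 3167 and 3215 FPKM with vehicle. Rps29, a zinc-binding protein of the small subunit, had 357 and 348 FPKM with TAN, 284 and 274 FPKM with TAMo, and 409 and 393 FPKM with vehicle. In each of these the groups did not overlap and TAN lay between TAMo and vehicle. Rpl5, the exception, was 0.10 ± 0.03 above vehicle (adjusted p = 0.0335).

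None of the 6 calls with TAN held in all 17 alternatives. Without TAN replicate 2 or vehicle replicate 1 no member was called, and without TAN replicate 1 or vehicle replicate 2 only Rpl36 and Rps29 were. Leaving out either TAMo library, whose spread enters the shared fit, gave 4 higher and 15 lower. Across all alternatives 58 members were never called.

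Set against each other, TAN libraries were above TAMo libraries for most of the family. With TAN over TAMo, 69 members were higher, Rplp0 was lower (-0.54) and 7 were not called, where 86.6% of all genes tested were called, 40.6% higher and 46.0% lower. The TAN libraries lay above both TAMo libraries for 70 members and below both for 2, beside 43.6% and 49.4% of all genes tested. The median log2 difference was 0.67 (0.35 to 0.70 under the other scalings), and the largest were Rpl38 (1.53), Rpl27 (1.43) and Rpl36 (1.42). Among the members not called were Rpl9, Rpl23a, Rps4x, Rps12, Rps24 and Rps27. This comparison shares its TAMo libraries with the one against vehicle, so that its counts are not a separate observation.

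Ribosomal proteins and paralogs outside the naming rule were mixed: with TAMo, 7 of the 10 tested fell and 2 rose, where 86.5% of all genes tested were called. Rpl22l1, a paralog of Rpl22, whose own loss impairs T cell development in mice, had 293 and 300 FPKM with TAN, 67.1 and 70.2 FPKM with TAMo, and 272 and 269 FPKM with vehicle. It fell by 1.96 with TAMo (limma adjusted p = 2.18e-09) and rose by 0.13 with TAN (adjusted p = 0.0259), a call that was lost when either TAN or either vehicle library was left out. Rpl22 itself had 169 and 169 FPKM with TAN, 108 and 105 FPKM with TAMo, and 167 and 168 FPKM with vehicle, so that with TAMo the paralog lay below Rpl22 and in the other groups above it. Fau, which encodes eS30, fell by 0.91, Rpl36al by 1.51, Rpl39l by 0.69 and the copy Rpl27-ps3 by 1.84. The last 3 are low genes, for which the scale of FPKM + 1 understates the change: the ratio of mean FPKM with TAMo over vehicle was 0.225 for Rpl36al, 0.436 for Rpl39l and 0.205 for Rpl27-ps3. Rpl27-ps3 had 0.672 and 2.63 FPKM in TAMo replicates 1 and 2, beside 5.87 and 10.2 FPKM with vehicle. It shares 100% of its windows with Rpl27, and its lowest value was in the library where other copies were also low. The call of Rpl39l was lost with the length and GC trend removed (-0.31, adjusted p = 0.0660). Rps27rt, one of the rows that share windows with a member, had 80.4 and 88.4 FPKM with TAN, 55.7 and 79.7 FPKM with TAMo, and 85.3 and 85.7 FPKM with vehicle. Its fall of 0.35 (adjusted p = 0.0480) rested on TAMo replicate 1 and was -0.10 without it (adjusted p = 0.126); with the length and GC trend removed it was 0.09 (adjusted p = 0.434). Rps27l, a p53 target in human cells, had 159 and 171 FPKM with TAN, 260 and 263 FPKM with TAMo, and 156 and 156 FPKM with vehicle, a rise of 0.74. Rpl7l1 rose by 0.55. Rack1, a scaffold protein on the head of the small subunit, had 1491 and 1449 FPKM with TAN, 1412 and 1371 FPKM with TAMo, and 1447 and 1429 FPKM with vehicle, and did not pass (-0.05, adjusted p = 0.166); it was called higher after quantile normalisation (0.46) and with the length and GC trend removed (0.23), and lower when centred on the median gene (-0.07) and without TAMo replicate 1 (-0.07). Rpl10l was listed at 0 in all libraries and Rpl3l was at most 0.133 FPKM.

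The proteins of the mitochondrial ribosome, a separate machine encoded by other nuclear genes, were also lower with TAMo. Of 76, 68 fell (89.5%) and 4 rose (5.26%), with a median of -0.63, beside 40.7% and 45.7% of all genes tested. With TAN 8 of them were called, all lower (10.5%), close to the 11.0% of all genes tested that were called lower. Of 16 other messages with a TOP motif, 10 fell and 4 rose with TAMo, where 86.5% of all genes tested were called. Nap1l1, a histone chaperone (-2.15), Eef1d (-1.82) and Naca (-1.39) fell most, and Eef1a1, the most abundant elongation factor, had 9384 and 9435 FPKM with TAN, 3677 and 4072 FPKM with TAMo, and 8562 and 8696 FPKM with vehicle. Eef2, Tpt1, Pabpc1 and Eif3f rose, by 0.26 to 0.41. With TAN, where 9.37% of all genes tested were called higher, 4 of these 16 were called, all higher: Eif4b (0.22), Nap1l1 (0.20), Eef2 (0.13) and Eef1g (0.12). Of these, only the call of Eif4b held when any 1 TAN or vehicle library was left out.

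Genes that act on this family at other steps moved in both directions with TAMo, where 86.5% of all genes tested were called (45.7% higher, 40.7% lower). Of 17 mTORC1 and TOP regulators tested, 9 rose and 5 fell: the mTORC1 inhibitors Sesn3 (3.67), Ddit4 (2.60), Sesn2 (2.36) and Tsc1 (1.32) rose most. Of 13 chaperones and importers that protect or carry new ribosomal proteins, 11 fell and Aamp rose by 0.27. Ipo9 fell by 1.12, Ipo5 by 1.09 and Grwd1, whose yeast counterpart Rrb1 escorts Rpl3, by 1.08. Of 11 genes of ribosome preservation, rescue and turnover, 8 fell and 2 rose, with Ccdc124 (-1.12), Usp10 (-1.06) and Pelo (-1.03) lowest. Of 5 genes tested in the p53 arm of ribosome surveillance, 4 rose and Nop53 fell, a call lost on the common sum outside the mitochondrial genome (-0.03, limma adjusted p = 0.326). Cdkn1a, a p53 target that arrests the cell cycle, had 73.9 and 71.2 FPKM with TAN, 1820 and 1803 FPKM with TAMo, and 53.6 and 52.8 FPKM with vehicle, and Mdm2 had 30.01 and 29.9 FPKM with TAN, 305 and 294 FPKM with TAMo, and 31.3 and 32.9 FPKM with vehicle. For both genes the TAMo libraries lay far above the rest. With TAN, Cdkn1a rose by 0.44, Ddit4 by 0.41 and Mdm4 by 0.24, and Myc fell by 0.26 and Grwd1 by 0.39. By list, 1 mTORC1 and TOP regulator rose and 2 fell, and 3 chaperones and importers rose and 2 fell. In the p53 arm 2 genes rose, and of the preservation genes and the promoter factors 2 each fell. Of all genes tested, 9.37% were called higher and 11.0% lower. Sesn2 was called lower with TAN, a call lost with low genes kept and with no variance trend. The call of Grwd1 was lost without TAN replicate 2 (-0.37) and without vehicle replicate 2 (-0.37).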

How the data were processed

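RNA sequencing values of 6 libraries, 2 in each of 3 groups, were analysed, with groups and replicate numbers taken from the labels. The authors deposited FPKM per gene and library. The submitters' processing notes name featureCounts 1.5.0-p3, HISAT2 2.0.5, CASAVA and the build mm10 without saying how each was used; the annotation, the strand setting and the lengths behind FPKM are not stated. Because FPKM divides by the counted reads of the library, a change in abundant transcripts moves every other value. The 10727 genes that reached 1 FPKM in at least 2 libraries were tested on log2(FPKM + 1) with limma 3.58.1 (R 4.3.3, variance trend, all 6 libraries in 1 fit), two-sided, with Benjamini-Hochberg adjustment over all genes and a threshold of 0.05. A log2 change on this scale understates changes of low genes, by more the lower the gene. The fit was tested on simulated data with known changes. Shares of FPKM were compared by an exact permutation test. All 77 members and 25295 of the 25638 symbols matched GENCODE release M21 (GRCm38), from which coordinates, lengths and the 100-base windows compared between genes came; promoters were RefSeq's.

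The members and lists were chosen with earlier results of these data known. Named were, in each comparison, the 8 members with the largest called rise and the 8 with the largest called fall, members not called or moving against the majority where at most 10, the 5 highest and 5 lowest by level, role groups, paralogs outside the rule, and in each other list the 4 called genes with the largest change. Members named for a gap between replicates or a changed call, and genes named because a count was 5 or fewer, were chosen after their values were seen. Single genes that the rule would also name are not all reported here. No batch is labelled.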

Additional observations from a re-analysis of the deposited data

How the results depend on the processing

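The share, median and count of members were recomputed under up to 17 alternatives, 16 of them planned and 1, adding copies to members, chosen after seeing the data. With TAMo against vehicle, the median of -0.73 moved to -0.456 with quantile normalisation, -0.632 on a common sum outside the mitochondrial genome and -0.401 with the trend on length and GC content removed; 12, 4 and 11 members were then called higher, against 1, and leaving out a library gave 1 to 2. With TAN against TAMo, the median of 0.67 moved to 0.424, 0.570 and 0.352 and the lower calls to 11, 3 and 14, against 1, with 1 to 3 when a library was left out. Outside the mitochondrial genome the difference in share was -5.26 percentage points for TAMo against vehicle and 4.95 for TAN against TAMo. With TAN against vehicle, higher and lower calls were 0 and 1 with low genes kept, 4 and 15 in a fit of the 2 groups, and 0 and 2 with no variance trend, against 1 and 5; leaving out a library gave 0 to 4 higher and 0 to 15 lower. Same-numbered libraries did not deviate together (correlations of 0.01 to 0.06), which cannot tell whether they share a culture or an animal. The replicate block gave 1 higher and 7 lower for TAN against vehicle, 1 and 70 for TAMo against vehicle and 69 and 1 for TAN against TAMo; it called Rps24 lower with TAMo (adjusted p = 0.0383).

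Signs of 7 members that were not called reversed; causes were not tested. For TAMo against vehicle, quantile normalisation gave 0.44 for Rpl7, 0.33 for Rpl9, 0.29 for Rps12 and 0.38 for Rps24; the common sum gave 0.0535 for Rpl7, 0.0251 for Rpl9 and 0.0401 for Rps24; removing the length and GC trend gave 0.28 for Rpl7, 0.35 for Rps12 and 0.18 for Rps24; centring on the median gene gave -0.000788 for Rps4x. For TAN against TAMo, quantile normalisation gave -0.36 for Rpl9, -0.33 for Rps12 and -0.40 for Rps24; the common sum gave -0.0262 for Rpl9, -0.0217 for Rps12, -0.0474 for Rps24 and -0.0591 for Rps27; removing the trend gave -0.39 for Rps12, -0.20 for Rps24 and -0.45 for Rps27; centring gave 0.0192 for Rps4x. Leaving out a library gave, for TAMo against vehicle, -0.0281 to 0.35 for Rpl23a, -0.11 to 0.0219 for Rpl7, -0.18 to 0.0295 for Rpl9 and -0.44 to 0.22 for Rps12, and for TAN against TAMo, -0.34 to 0.0361 for Rpl23a, -0.0330 to 0.17 for Rpl9, -0.26 to 0.40 for Rps12 and -0.0493 to 0.12 for Rps27. Where a group was left with 1 library, it was assumed to vary like the others. Of 612 values of single members, 520 kept sign and side of the threshold. Precision is limited by 2 libraries per group and by FPKM without read counts, and that of single members also by reads shared with copies.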
